A study of Bos taurus with 30 samples.

Results

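The genes described here encode the integrins, the laminins, the nidogens and dystroglycan of cattle, that is, the main cell receptors for basement membrane and the core glycoproteins they bind. They were taken from the count table by symbol: each gene named as an integrin alpha or beta chain, a laminin alpha, beta or gamma chain, nidogen 1 or 2, or dystroglycan. This gave 38 of 35092 genes, namely 16 integrin alpha chains, 8 integrin beta chains, 11 laminin chains, NID1, NID2 and DAG1. Of the 38 genes, 36 had 10 or more counts in 3 or more libraries. The other 2 were ITGAM, an alpha chain of leukocyte integrins with at most 2 counts in a library, and ITGB8, an integrin beta chain that pairs with ITGAV and reached 10 counts in 1 library.

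A laminin is a trimer of an alpha, a beta and a gamma chain. Laminins polymerize at the cell surface, nidogens link them to the type IV collagen network, and the resulting basement membrane underlies every epithelium. An integrin is a pair of an alpha and a beta chain, and the pair sets what it binds: laminin for ITGA3, ITGA6 and ITGA7 with ITGB1 and for ITGA6 with ITGB4, fibronectin for ITGA5 with ITGB1, and cell surface ligands on other cells for ITGAL with ITGB2. In the ruminant conceptus before implantation these proteins lie at the borders of epiblast, hypoblast and trophoblast, and gastrulating cells cross a basement membrane when they leave the epiblast.

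The study asked how in vitro procedures alter the transcriptome of elongated Bos taurus embryos at day 15, in the embryonic disc (ED) and in the extra-embryonic membranes (EEM). In vitro produced (IVP) embryos came from slaughterhouse oocytes, matured, fertilized with semen of a single bull and cultured without serum, and were placed in recipient cows at day 7. In vivo (IVV) embryos were conceived by artificial insemination of superstimulated donor cows and stayed in them. Embryos of both kinds were recovered by uterine flushing at day 15, pieces of ED and EEM were frozen, and poly(A) RNA was sequenced without strand information. Superstimulation belonged to the IVV donors only, so the hormone treatment of the cow and the origin of the embryo cannot be told apart. The study also reported that IVP embryos were shorter on average than IVV embryos. A disc was found in a smaller share of the IVP embryos, and embryos without a disc were discarded. Embryo size and this selection likewise cannot be told apart from the procedure. By the study's methods each procedure rested on a pair of cows, so most embryos of a procedure must have shared a uterus. The labels do not tie embryos to cows, so the cow could not be put in the models. The p-values measure the spread between embryos and not between cows.

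The 17 embryos, 8 IVP and 9 IVV, gave 30 libraries of 48713218 to 63037371 counts each: 7 IVP and 9 IVV of the ED, 6 IVP and 8 IVV of the EEM. For 13 embryos (5 IVP and 8 IVV) there was a library of each tissue. POU5F1, an epiblast marker, averaged 29.2 ± 9.00 CPM (counts scaled to library size; SD, n = 7) in IVP discs and 95 ± 63.1 CPM (n = 9) in IVV discs, against 1.61 ± 0.607 (n = 6) and 1.24 ± 0.614 CPM (n = 8) in the EEM. SOX2, another epiblast marker, had 0 counts in each of the 30 libraries. Trophoblast markers summed to 13124 to 74723 CPM in the ED libraries and to 36292 to 83663 CPM in the EEM libraries. Keratins were a large part of these sums: in IVP and IVV discs KRT8 averaged 14856 and 10696 CPM and KRT18 9567 and 7325 CPM. Since these are pieces of tissue, fewer cells of a type and less RNA per cell cannot be told apart in any value below.

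Averaged over the 30 libraries, 9 genes lay above 100 CPM: LAMA1, LAMA5, LAMB1, LAMC1, NID1, NID2, ITGA6, ITGB1 and DAG1. These 9 include the chains of laminin-111 (LAMA1, LAMB1, LAMC1), the laminin of early embryos, both nidogens, the laminin receptor pair ITGA6 and ITGB1, and dystroglycan. A further 5 genes (ITGA3, ITGA5, ITGAE, ITGAV and ITGB5) lay between 10 and 100 CPM, 13 between 1 and 10 CPM, and 11 under 1 CPM. CPM rise with transcript length, so these classes say how well each gene was read and give no order of abundance between genes.

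**Figure D1:**
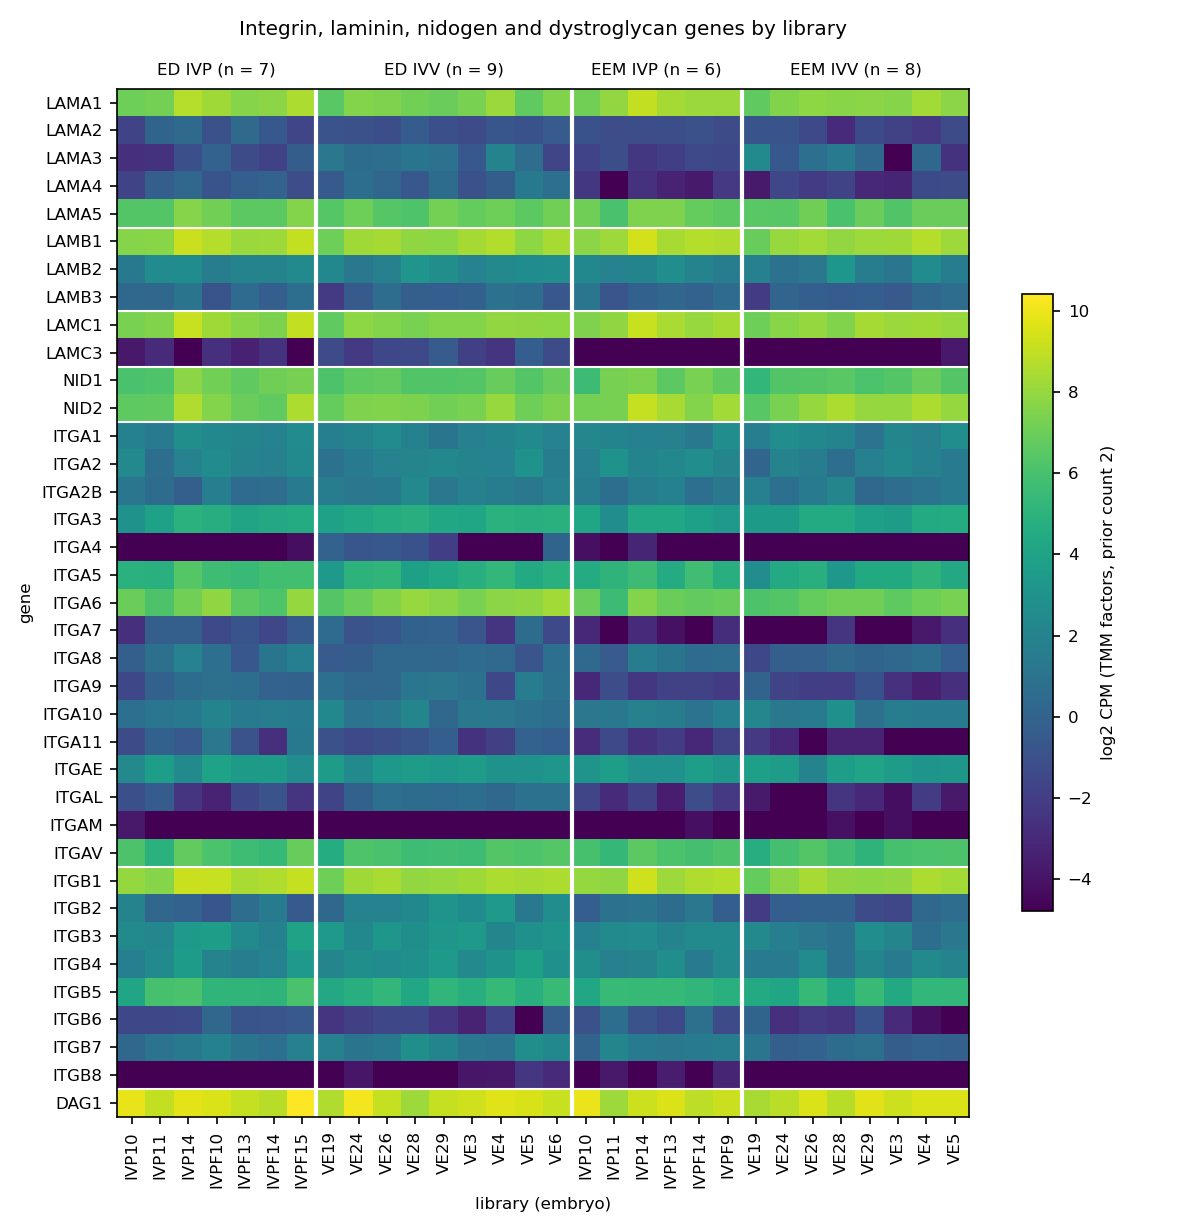
Log2 CPM (TMM factors, prior count 2) of 37 of the 38 genes (rows, ordered by role) in the 30 libraries (columns, by group and embryo). The yellow and light green rows are the 9 genes above 100 CPM, which run through every library of both tissues, and the darkest rows are ITGA4, ITGAM, ITGB8 and, in the EEM, LAMC3.

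The abundant genes varied between embryos within each group. DAG1, the transmembrane receptor whose sugars bind laminin, ranged from 289 to 1354 CPM over all libraries, and its group means were 772 ± 322, 621 ± 242, 614 ± 237 and 626 ± 195 CPM (ED of IVP, ED of IVV, EEM of IVP and EEM of IVV; SD). LAMB1, the beta chain of laminin-111, averaged 355 ± 152, 279 ± 81.1, 385 ± 156 and 282 ± 82.4 CPM in the same order of groups. ITGB1, the beta chain shared by most laminin and collagen receptors, averaged 410 ± 153, 299 ± 77.3, 370 ± 149 and 259 ± 82.8 CPM. For each of these 3 genes the 4 groups overlapped. Among the 14 genes above 10 CPM, the library of the IVV embryo VE19 was the lowest of the ED for 6 and the lowest of the EEM for 8. The library of the IVP embryo IVP10 was the lowest of the ED for 5. The library of the IVP embryo IVP14 was the highest of the ED for 9 and the highest of the EEM for 8.

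In the ED, 6 of the 35 genes tested differed between IVP and IVV embryos, 1 higher and 5 lower in IVP. ITGA5, the alpha chain of the fibronectin receptor, was higher. Among those lower were LAMA3 and LAMC3, laminin chains, and ITGAL and ITGB2, which form a leukocyte integrin, by 3.32-fold to 6.26-fold. Of all 15733 genes tested, 6.34% were called, 1.40% higher and 4.95% lower (quasi-likelihood test of edgeR, Benjamini-Hochberg adjusted p under 0.05 over all genes, 1 surrogate variable). The median log2 fold change was −0.05 over the 35 genes and −0.01 over all genes. ITGA4, ITGAM and ITGB8 had too few counts to be tested under the filter used here. With no filter ITGB8 was called, with 0 counts in each IVP disc and 0 to 10 counts in the IVV discs.

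LAMA3 (Entrez 100336873) is the alpha chain of a laminin of stratified and anchoring epithelia. It lay at 0.111, 0.362 and 0.946 CPM (lowest, median and highest) in the 7 IVP and at 0.289, 1.61 and 4.03 CPM in the 9 IVV discs, where 7 of 9 lay above every IVP disc while the 2 lowest fell among them. Its log2 fold change was −2.32 (SE 0.53, adjusted p = 0.00894). LAMB3, a beta chain that assembles with LAMA3, averaged 1.26 ± 0.499 CPM in IVP and 0.998 CPM in IVV discs, with a fitted log2 difference of 0.33 (95% interval −0.40 to 1.06) and no call (adjusted p = 0.736). The difference between LAMA3 and LAMB3 was not tested.

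LAMC3 (Entrez 518914), a gamma chain found in laminins of nerve, vessel and retina, was read near the limit. It had 0 to 7 counts in the IVP discs and 8 to 53 counts in the IVV discs, which is 0, 0.0572 and 0.135 CPM against 0.140, 0.341 and 0.814 CPM. It reached 10 counts in 0 IVP and 8 IVV discs, so that it entered the test through the IVV discs alone. Its IVP and IVV discs did not overlap, and how often this holds over all genes was not counted. The log2 fold change was −2.65 (SE 0.60, adjusted p = 0.00890).

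None of the chains of laminin-111 was called in the ED. LAMA1 lay at 133, 219 and 423 CPM in IVP and at 90.5, 164 and 282 CPM in IVV discs (log2 fold change 0.50, 95% interval 0.08 to 0.92, adjusted p = 0.202). LAMC1 lay at 162, 212 and 552 CPM in IVP and at 104, 195 and 249 CPM in IVV discs (0.40, 0.00 to 0.80, adjusted p = 0.298). Both pairs of groups overlapped, and the 3 highest IVP discs lay above every IVV disc for each gene. For LAMB1 the interval was −0.19 to 0.56, for NID1 −0.05 to 0.73 and for NID2 −0.53 to 0.43, on the log2 scale.

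Among the integrin alpha chains, ITGA5 (Entrez 281873) lay at 29.1, 51.3 and 84.6 CPM in the IVP discs and at 10.4, 27.1 and 37.9 CPM in the IVV discs. The highest 5 of the 7 IVP discs lay above every IVV disc. The log2 fold change was 0.90 (SE 0.21, adjusted p = 0.00968). ITGAL (Entrez 281874), the alpha chain of a leukocyte integrin that binds ICAM proteins, lay at 0.0641, 0.324 and 0.747 CPM in IVP and at 0.282, 1.45 and 1.91 CPM in IVV discs. All IVV discs but VE19 lay above every IVP disc, and the log2 fold change was −2.23 (SE 0.46, adjusted p = 0.00410). ITGA6, which binds laminin with ITGB1 or ITGB4, lay at 71.0, 126 and 257 CPM in IVP and at 82.5, 214 and 317 CPM in IVV discs, with a log2 difference of −0.76 (SE 0.24) and an adjusted p of 0.0590, just outside the threshold in edgeR. It was called by DESeq2, with no filter, with 10 counts in 3 libraries, and without IVPF10, IVPF15, VE19, VE24, VE3 or VE4.

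ITGB2 (Entrez 281877), the beta chain that pairs with ITGAL and ITGAM, lay at 0.577, 1.15 and 3.94 CPM in IVP and at 1.21, 4.81 and 10.6 CPM in IVV discs. It was lowest in 4 IVP discs and highest in 5 IVV discs, with the rest mixed. The log2 fold change was −1.73 (SE 0.44, adjusted p = 0.0184). ITGA4 (Entrez 282882), an alpha chain of receptors for VCAM1 and fibronectin, had at most 1 count in the IVP discs, 14 to 68 counts in 6 of the IVV discs and 0 in the other 3. Set against 3 counts per library, the mean of the IVV discs (0.431 CPM) was at least 7.80-fold higher. In 11 alternative fits ITGA4 was tested and called lower in IVP: with no filter, with 10 counts in 3 libraries, among titles ending in C, with IVPF embryos alone and without each of the 7 IVP embryos. Apart from the fit with no filter, ITGA4 entered these tests through the IVV discs alone, where it is higher. The other integrin beta chains and DAG1 were not called in the ED. Over the 29 genes not called there, the fitted log2 differences ran from −0.80 (ITGB7) to 0.92 (ITGB6), and 22 of the 29 intervals covered 0.

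**Figure D2:**
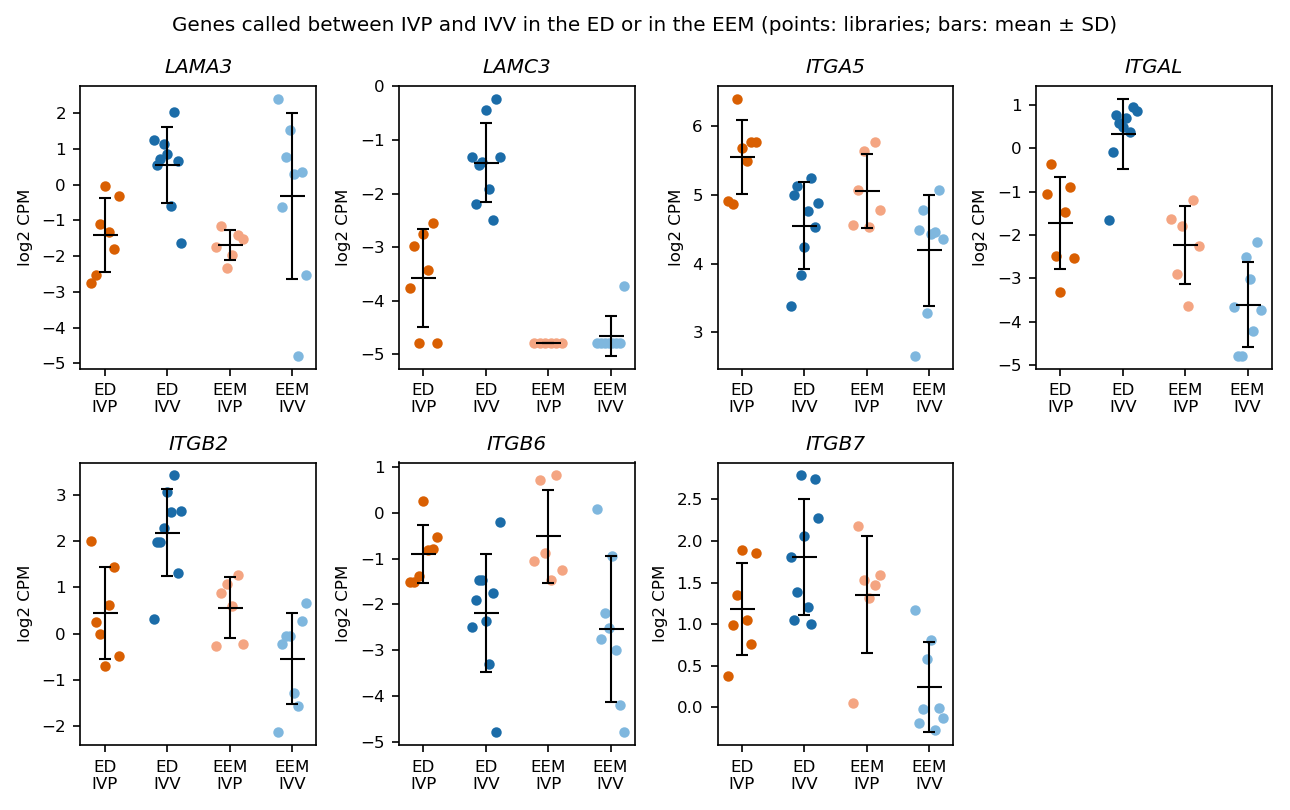
Log2 CPM of 7 of the 8 genes called between IVP and IVV in the ED or in the EEM, with 1 point per library in the 4 groups (ED IVP n = 7, ED IVV n = 9, EEM IVP n = 6, EEM IVV n = 8) and bars for the mean ± SD. For LAMA3, LAMC3, ITGAL and ITGB2 the ED of IVP lies below the ED of IVV, with overlap except in LAMC3, which entered the test through the IVV discs alone. For ITGB6 and ITGB7 the EEM of IVP lies above the EEM of IVV with overlap.

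Markers of cell types were read beside these genes. Of the 8 epiblast markers tested 2 were called, POU5F1 (log2 fold change −1.72) and PRDM14 (−1.95), both lower in IVP, and 7 were fitted below 0. Of the 11 hypoblast and endoderm markers tested 1 was called, CUBN (−2.42), also lower in IVP. Of the 16 trophoblast markers tested 0 were called. Primitive streak and mesoderm markers summed to 9.26 to 22.1 CPM in the IVP discs and to 29.5 to 184 CPM in the IVV discs, and 11 of the 14 tested were lower in IVP, with SNAI1 at the floor in both. Leukocyte markers, of interest for ITGAL and ITGB2, summed to 15.2 to 32.9 CPM in IVP and 14.2 to 29.3 CPM in IVV discs, and of the 9 tested 1 was called, higher in IVP. Of these 9, 5 were fitted above 0 and 4 below. PTPRC, which defines leukocytes, had 0 counts in each IVP disc and averaged 0.210 ± 0.296 CPM in the IVV discs, at 0 to 64 counts, and was not called. CD14, another leukocyte marker without a call, averaged 2.68 ± 0.894 CPM in IVP and 1.34 ± 0.527 CPM in IVV discs. Of the 6 endothelial markers tested, 2 were lower and 1 higher in IVP: FLI1 had at most 1 count in an IVP disc and averaged 2.96 ± 2.04 CPM in IVV discs, KDR averaged 0.412 ± 0.225 against 13.5 ± 9.73 CPM (log2 fold change −5.10), and ESAM 2.59 ± 1.01 against 1.24 ± 0.763 CPM (1.20). FLI1 entered the test through the IVV discs alone, where it is higher. The part of these cells in the 6 calls was not tested.

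The calls of the ED held in each of the 16 fits that left out 1 embryo. With XIST level added to the model ITGA5 (log2 fold change 1.05), ITGB2 (−1.34) and LAMA3 (−1.65) were no longer called, while ITGB6 was newly called. Against the 3 IVP embryos whose titles lack the letter F LAMA3 alone was called. ITGA5 was also lost among libraries with titles ending in C, and LAMA3 and LAMC3 with the IVPF embryos alone. Over all alternatives the log2 fold changes ran from 0.75 to 1.14 for ITGA5, from −2.16 to −1.25 for ITGB2 and from −2.94 to −1.65 for LAMA3.

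In the EEM, 2 of the 30 genes tested differed between IVP and IVV embryos, both of them integrin beta chains and both higher in IVP. ITGB6, which forms with ITGAV a receptor that binds fibronectin and activates latent TGF-beta, was 5.82-fold higher, and ITGB7, which forms with ITGAE a receptor for E-cadherin and with ITGA4 a receptor for MADCAM1, was 2.49-fold higher. Of all 14718 genes tested in the EEM, 3.81% were called, 2.29% higher and 1.52% lower. The median log2 fold change was 0.33 over the 30 genes and 0.00 over all genes, and each of the 7 integrin beta chains tested was fitted above 0, a direction that passed the test in 2 of them. ITGA4, ITGA7, ITGA11, ITGAL, ITGAM, ITGB8, LAMA4 and LAMC3 had too few counts to be tested under the filter used here. With no filter ITGA11 was tested and called.

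ITGB6 (Entrez 282644) lay at 0.327, 0.478 and 1.72 CPM in the 6 IVP and at 0, 0.126 and 1.03 CPM in the 8 IVV membranes. It was low in 6 of the 8 IVV membranes, which lay below every IVP membrane, and the other 2, VE29 and VE19, fell within the IVP range. The log2 fold change was 2.54 (SE 0.55, adjusted p = 0.00700). In the ED the same gene lay at 0.315, 0.534 and 1.15 CPM in IVP and at 0, 0.232 and 0.838 CPM in IVV embryos, and was called only with XIST level in the model. ITGB7 (Entrez 514031) lay at 0.999, 2.78 and 4.50 CPM in IVP and at 0.787, 0.952 and 2.22 CPM in IVV membranes, so that 5 of the 6 IVP membranes lay above every IVV membrane. The log2 fold change was 1.31 (SE 0.29, adjusted p = 0.00718). In the ED it lay at 1.26, 2.04 and 3.67 CPM in IVP and at 1.96, 3.47 and 6.87 CPM in IVV embryos, lower in IVP by the fit but not called (−0.80, adjusted p = 0.20). Both calls rested on the surrogate variable: without it the log2 fold changes were 1.72 (adjusted p = 0.208) and 1.16 (adjusted p = 0.0730), and over the alternatives the adjusted p ran from 0.000288 to 0.657 for ITGB6 and from 0.000134 to 0.57 for ITGB7. Both were also lost with XIST as covariate and among titles ending in C, and 1 of them in each subset of IVP embryos, but each was kept in all 14 fits that left out 1 embryo.

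LAMA3 lay at 0.163, 0.290 and 0.412 CPM in IVP and at 0, 1.21 and 5.26 CPM in IVV membranes, and the IVV membranes lay on either side of the IVP ones, 2 below and 6 above. The log2 difference was −1.86 (SE 0.57, adjusted p = 0.0697). ITGA5 lay at 23.2, 30.6 and 54.5 CPM in IVP and at 6.28, 21.8 and 33.6 CPM in IVV membranes, with a log2 difference of 0.80 (SE 0.23, adjusted p = 0.0548). Neither passed the threshold in edgeR with 1 surrogate variable. ITGA5 was called by DESeq2 and without IVP10, IVPF13, IVPF9 or VE29, and LAMA3 with no surrogate variable, with no filter on low counts and without IVPF14, VE19, VE3 or VE5. ITGB2 averaged 1.56 ± 0.651 CPM in IVP and 0.781 ± 0.463 CPM in IVV membranes (1.02, 95% interval 0.27 to 1.77, adjusted p = 0.173).

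The abundant basement membrane genes were not called in the EEM. Over the 28 genes not called, 19 of the 28 intervals of the log2 difference covered 0. The log2 differences were 0.48 for LAMA1 (95% interval 0.01 to 0.94), 0.40 for LAMB1 (−0.05 to 0.84), 0.34 for LAMC1 (−0.11 to 0.80), 0.59 for NID1 (0.10 to 1.08), 0.09 for NID2 (−0.49 to 0.67) and −0.07 for DAG1 (−0.56 to 0.42). Hypoblast and endoderm markers, which accompany a tissue that makes laminin-111, summed to 1120 to 2172 CPM in IVP and 587 to 2048 CPM in IVV membranes. APOA1, 1 of these markers, averaged 1335 ± 437 CPM in IVP and 938 ± 453 CPM in IVV membranes, so the sums mainly follow its level. Of the 10 hypoblast and endoderm markers tested 1 was called, TTR, which was lower in IVP, with at most 1 count in an IVP membrane and 2.18 ± 1.77 CPM in IVV membranes. TTR thus entered the test through the IVV membranes alone. Their part in these differences was not tested.

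**Figure D3:**
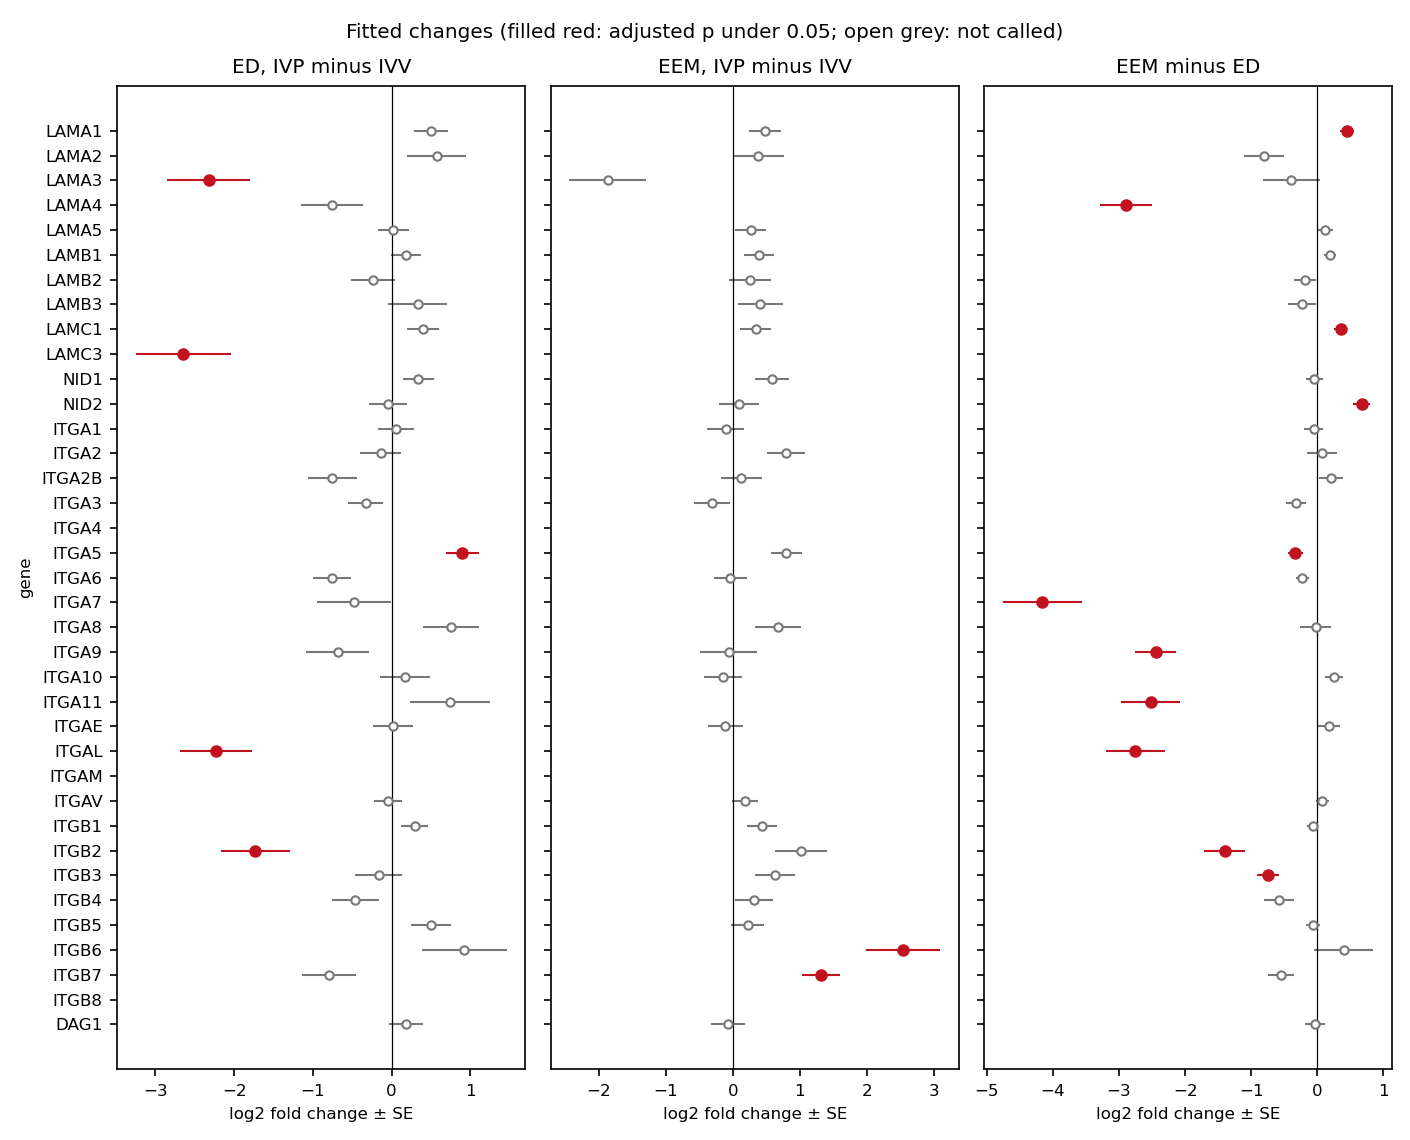
Fitted log2 fold change ± SE of the tested genes among 37 of the 38 (by role) between IVP and IVV in the ED and in the EEM and between EEM and ED; filled red points have an adjusted p under 0.05. Red points lie mostly left of 0 in the ED (4 of 5 drawn), right of 0 in the EEM (2 of 2) and left of 0 for EEM against ED (8 of 11 drawn); ITGA4 and LAMC3 are left out of the last panel because they were at or near the floor in the EEM.

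Within the 13 embryos with both tissues, 13 of the 36 genes tested differed between EEM and ED, 3 higher and 10 lower in the EEM. Higher were LAMA1 and LAMC1, chains of laminin-111, and NID2. Among those lower were the laminin chains LAMA4 and LAMC3, the integrin alpha chains ITGA5, ITGA7, ITGA9, ITGA11 and ITGAL, and the integrin beta chains ITGB2 and ITGB3. Of all 16784 genes tested, 21.9% were called, 8.50% higher and 13.4% lower, with embryo as a block and the tissue effect averaged over IVP and IVV embryos. The median log2 fold change was −0.20 over the 36 genes and 0.09 over all genes, and it stays the same with LAMC3 at its bound. These libraries also enter the comparisons of IVP and IVV.

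NID2 (Entrez 521854), which links laminin to collagen, lay at 98.2, 121 and 394 CPM in the ED and 151, 252 and 536 CPM in the EEM of IVP, and at 111, 171 and 269 and 88.8, 256 and 378 CPM in the ED and EEM of IVV embryos. It averaged 261 CPM in the EEM and 167 CPM in the ED of the 13 embryos and was higher in the EEM of 11. Its log2 fold change was 0.67 (SE 0.13, adjusted p = 0.000527). LAMA1 (Entrez 506387), whose discs are given above, lay at 142, 281 and 506 CPM in the EEM of IVP and 103, 209 and 319 CPM in the EEM of IVV embryos. In the paired embryos it averaged 245 and 184 CPM and was higher in the EEM of 12 of 13 embryos (0.45, SE 0.11, adjusted p = 0.00433). LAMC1 (Entrez 532572) lay at 178, 303 and 551 and at 130, 261 and 325 CPM in the same membranes. In the paired embryos it averaged 272 and 219 CPM and was higher in 11 (0.35, SE 0.10, adjusted p = 0.0137). The differences were small against the range between embryos, and these 3 calls were lost without the block (adjusted p = 0.0758, 0.271 and 0.428 in the same 26 libraries). LAMB1, their partner, had a log2 difference of 0.19 (95% interval 0.02 to 0.37, adjusted p = 0.133), and NID1 one of −0.04 (−0.29 to 0.20).

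How many genes were called each way depended on the scale. With TMM factors 1427 genes were higher and 2247 lower in the EEM; with RLE factors the split was 983 and 2329, and with library sizes alone it was 218 and 3000, while the median of all genes moved from 0.09 to 0.05 and −0.11. With library sizes alone LAMA1 (0.24, adjusted p = 0.0937) and LAMC1 (0.15, adjusted p = 0.335) were not called, still above the median of all genes, and NID2 was the 1 gene of this set called higher. The same scale added ITGA3, ITGA6, ITGB4, ITGB7 and LAMA2 to those called lower, so that the set went from 3 higher and 10 lower to 1 higher and 15 lower. Each of the 10 genes called lower lay below the median of all genes under every scale, ITGA5 by the least.

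The genes lower in the EEM were mostly ones read weakly. LAMA4 (Entrez 529670), an alpha chain of laminins of vessels and mesenchyme, lay at 0 to 0.175 CPM in the EEM of IVP and 0.0427 to 0.370 CPM in the EEM of IVV embryos, against 0.278 to 1.21 and 0.460 to 2.49 CPM in the ED. It was lower in the EEM of 13 of 13 embryos (log2 fold change −2.90, SE 0.39, adjusted p = 1.55e-05). ITGA9 (Entrez 532127), which binds tenascin and VCAM1 with ITGB1, lay at 0.0815 to 0.393 and 0.0563 to 0.983 CPM in the EEM against 0.315 to 1.70 and 0.316 to 3.09 CPM in the ED and was likewise lower in 13 embryos (−2.45, SE 0.31, adjusted p = 6.54e-06). The pattern was that of a low signal in the ED and a trace in the EEM.

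ITGA7 (Entrez 506953), a laminin receptor chain of muscle, had 0 to 6 counts in the EEM and 6 to 94 counts in the ED, lower in 13 of 13 embryos (log2 fold change −4.16, SE 0.60, adjusted p = 3.24e-05). ITGA11 (Entrez 523755), a collagen receptor chain of mesenchyme, had 0 to 17 counts in the EEM and 6 to 145 in the ED, lower in 13 of 13 (−2.52, SE 0.44, adjusted p = 0.000278). LAMC3 had 0 counts in 13 of the 14 EEM libraries and 2 in the other. Against 3 counts per library, the ED of the 13 embryos (0.263 CPM) was at least 4.43-fold higher. In the EEM of IVP embryos ITGA11 stayed above the floor of 3 counts in each library, at 4 to 17 counts. ITGA7 and LAMC3 reached 10 counts in 0 EEM libraries, so that they entered the test through the ED alone, where they are higher.

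ITGB3 (Entrez 282642), which forms with ITGAV a receptor for osteopontin and vitronectin, lay at 3.72, 5.42 and 15.5 CPM in the ED and 3.63, 5.53 and 5.72 CPM in the EEM of IVP, and at 4.44, 8.48 and 10.1 and 1.58, 2.84 and 6.30 CPM in those of IVV embryos. Over the paired embryos it averaged 3.96 CPM in the EEM and 7.11 CPM in the ED (log2 fold change −0.74, SE 0.16, adjusted p = 0.00230). It was lower in the EEM of 8 of 8 IVV embryos and 3 of 5 IVP embryos. ITGA5 averaged 26.8 and 34.0 CPM (−0.33, SE 0.11, adjusted p = 0.0424), a call that was lost without the block (adjusted p = 0.517), with no filter, and in 9 of the 13 fits that left out 1 embryo. ITGAL and ITGB2 were also lower on average over both procedures and are described by procedure below.

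Markers of cell types also differed between the tissues. All 9 epiblast markers tested and 13 of the 14 primitive streak and mesoderm markers tested were lower in the EEM, with streak sums of 2.52 to 7.83 CPM in IVP and 4.98 to 10.4 CPM in IVV membranes and TBXT at 0 counts in both. TBXT thus entered the test through the ED alone. Of the 16 trophoblast markers 6 were higher and 1 lower in the EEM. Endothelial markers, of interest for LAMA4, summed to 4.79 to 18.5 and 5.77 to 52.1 CPM in the ED and to 10.5 to 16 and 4.74 to 11.5 CPM in the EEM (IVP and IVV). Of the 7 tested, KDR (−4.14), TEK (−3.02) and TIE1 (−0.75) were lower and ESAM (0.51) higher in the EEM. Of the 12 hypoblast and endoderm markers tested, 6 were lower and 1, APOA1 (0.53), higher in the EEM. Of the 11 leukocyte markers tested, CD79A (−2.25) and CORO1A (−2.20) were lower and 0 higher in the EEM, where PTPRC was at the floor in both procedures. Their part in the 13 calls was not tested.

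The tissue difference itself depended on the procedure for 3 of 36 genes, among them ITGB2 and ITGB7, each with a more positive difference of EEM minus ED in IVP embryos. Of all 16784 genes, 1.02% were called for this interaction, 0.918% with a more positive and 0.107% with a more negative tissue effect in IVP. The median interaction was 0.37 over the 36 genes and 0.04 over all genes, on the log2 scale. The same 26 libraries and the same embryo block were used as for the tissue comparison.

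ITGB2 was lower in the EEM of 8 of 8 IVV embryos (5.16 ± 3.09 against 0.781 ± 0.463 CPM, log2 fold change −2.71, SE 0.40) and of 3 of 5 IVP embryos (2.05 ± 1.25 against 1.70 ± 0.607 CPM, −0.08, SE 0.48). The interaction was 2.64 (SE 0.62, adjusted p = 0.0450), close to the threshold, and it was lost without any of 10 embryos (IVP11, IVP14, IVPF13, IVPF14, VE19, VE26, VE28, VE29, VE3 or VE4), with adjusted p up to 0.132. ITGAL, its partner, lay at 0.0436, 0.214 and 0.401 CPM in the EEM of IVP and at 0, 0.0408 and 0.188 CPM in the EEM of IVV embryos, and was lower in the EEM of 8 of 8 IVV and 4 of 5 IVP embryos. Its tissue effects were −4.52 (SE 0.59) in IVV and −0.99 (SE 0.66) in IVP embryos, and the interaction of 3.53 (SE 0.90) was not called (adjusted p = 0.0625). The ITGAL interaction was called by DESeq2, with no filter, with halved counts, without the block and without VE4.

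ITGB7 was lower in the EEM of 8 of 8 IVV embryos (3.74 ± 2.01 against 1.23 ± 0.522 CPM, log2 fold change −1.54, SE 0.25) and higher in the EEM of 4 of 5 IVP embryos (1.88 ± 0.467 against 2.7 ± 1.25 CPM, 0.45, SE 0.30). The interaction was 1.98 (SE 0.39, adjusted p = 0.0143), with adjusted p of 0.0552 without IVP11 and 0.0608 without IVPF14. ITGA6 was lower in the EEM of 8 of 8 IVV and of 2 of 5 IVP embryos, with an interaction of 0.84 (SE 0.21) that was not called (adjusted p = 0.0544). The ITGA6 interaction was called without IVP11 and with library sizes alone. Over the 2 procedures together, log2 fold changes from ED to EEM were −1.40 (SE 0.31, adjusted p = 0.00254) for ITGB2 and −2.75 (SE 0.44, adjusted p = 0.000111) for ITGAL. Under DESeq2 ITGA6, ITGA2B, ITGB3 and ITGAL joined the 3 genes. Of the streak and mesoderm markers tested, 3 of 14 were also called for the interaction, in the same direction, as were 1 of 7 endothelial markers (KDR, 5.00) and 1 of 11 leukocyte markers, S100A8, which had at most 1 count in the ED of IVP and the EEM of IVV embryos. Their part was not tested.

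**Figure D4:**
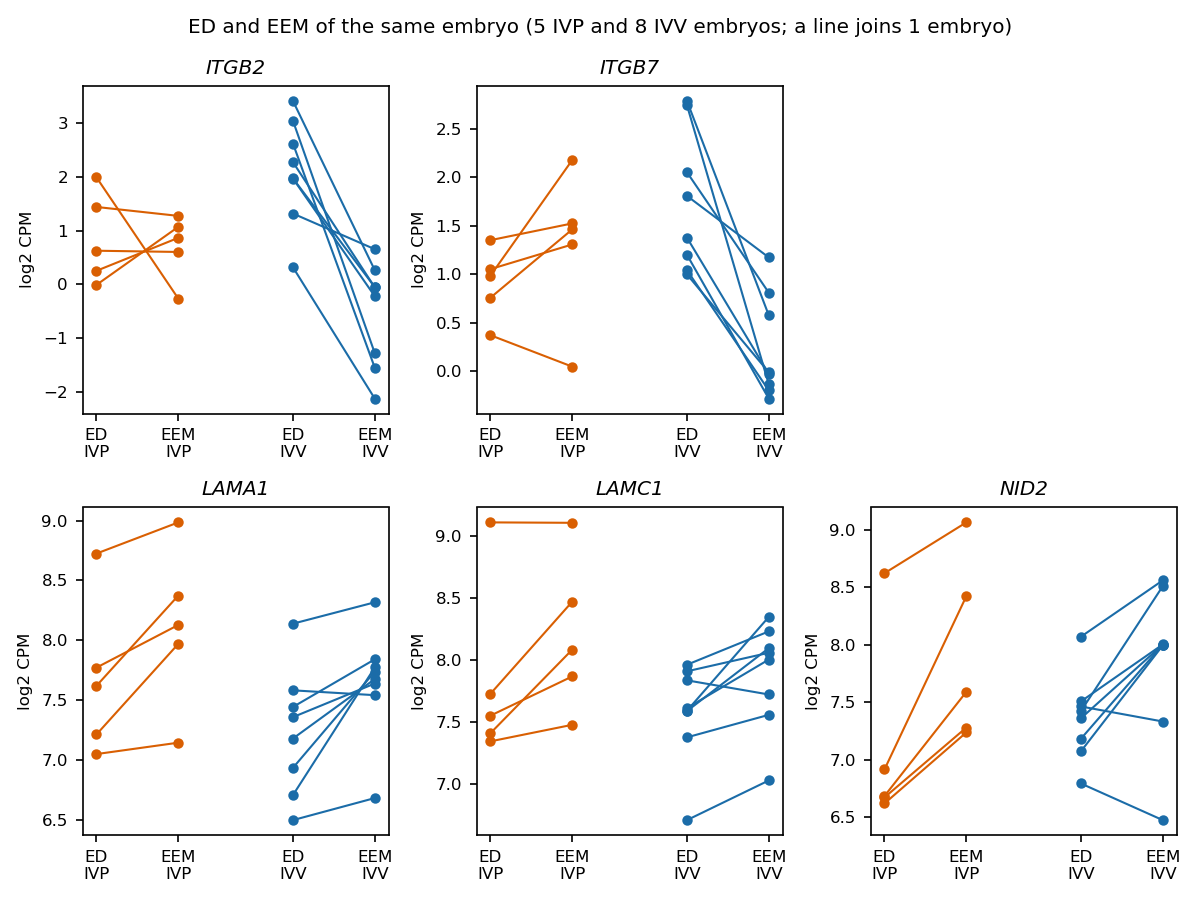
Log2 CPM in the ED and the EEM of the same embryo, with 1 line per embryo (5 IVP in orange, 8 IVV in blue), for 2 of the 3 genes called for the interaction (top) and the 3 called higher in the EEM (bottom). For ITGB2 and ITGB7 all 8 IVV lines fall while the IVP lines go both ways, and for LAMA1, LAMC1 and NID2 most lines rise in both procedures.

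In all, with edgeR and the settings described first for each comparison, 16 of the 38 genes were called in at least 1 comparison and 22 in none. Of the 36 that pass the count rule, the 20 without a call were ITGA1, ITGA2, ITGA2B, ITGA3, ITGA4, ITGA6, ITGA8, ITGA10, ITGAE, ITGAV, ITGB1, ITGB4, ITGB5, LAMA2, LAMA5, LAMB1, LAMB2, LAMB3, NID1 and DAG1. Among these 20, DESeq2 called ITGA6 in the ED and for the interaction, ITGA2B for the interaction, and LAMA2 and ITGB4 between the tissues. ITGA4, whose calls in the ED under other settings are given above, was called for the interaction with no filter and without the block; between the tissues it could not be fitted (0 counts in the EEM of IVV embryos), and its IVV discs were at least 7.31-fold above 3 counts per library there. The 20 include most of the alpha chains that bind collagen (ITGA1, ITGA2 and ITGA10) and ITGB1, with which those pair.

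The ligands and partners of these receptors were followed in 5 lists, whose counts stand against 6.34% of all genes called in the ED, 3.81% in the EEM, 21.9% between the tissues and 1.02% for the interaction. Of 31 tested integrin ligands other than laminins, 7 (22.6%) were called in the ED, each lower in IVP. TGFBI, an integrin-binding matrix protein, averaged 7.62 ± 4.11 CPM in IVP and 64.6 ± 35.4 CPM in IVV discs (log2 fold change −3.18, SE 0.38, adjusted p = 1.78e-05). TNC, the tenascin bound by ITGA9, averaged 0.172 ± 0.114 and 2.36 ± 0.980 CPM (−3.83, SE 0.51, adjusted p = 5.77e-05). SPP1 (osteopontin, −3.05) and NPNT (nephronectin, a ligand of ITGA8, −2.10) were the next by p. In the EEM 3 of 29 (10.3%) were called, FBN2 (2.54), FGG (1.92) and THBS4 (1.37), each higher in IVP. Between the tissues 17 of 34 (50%) were called, 2 higher and 15 lower in the EEM, among them TGFBI (−7.19) and THBS4 (−3.78), and for the interaction 5 of 34 (FBN2, TGFBI, ADAM23, THBS4 and TNC), each more positive in IVP. The median log2 fold change of this list was −0.27 in the ED, 0.32 in the EEM and −0.79 between the tissues.

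Inside the cell, 37 adaptors and focal adhesion proteins were tested. In the ED 2 of them (5.41%, near the share of all genes) were called, both lower in IVP: TNS4, a tensin (−3.43, SE 0.64), and FERMT3, the kindlin of blood cells (−1.12, SE 0.32). FERMT3 averaged 1.01 ± 0.425 CPM in IVP and 2.20 ± 0.621 CPM in IVV discs. In the EEM 0 of 35 were called by edgeR's quasi-likelihood test and 0 by DESeq2, with 2 at an unadjusted p under 0.05 in either tool. Between the tissues 3 were higher (RAP1A, FERMT2 and SHARPIN) and 5 lower in the EEM (FERMT3, APBB1IP, PARVB, TNS4 and FERMT1), 21.6% in all and near the share of all genes. The median of this list was 0.12 in the ED and 0.06 in the EEM.

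Of the other basement membrane proteins, 2 of 27 (7.41%) were called in the ED, COL15A1 (−1.69, SE 0.46) and FREM2 (−1.35, SE 0.40), both lower in IVP, and in the EEM 1 of 24 (4.17%) was called, higher in IVP, both shares near those of all genes. Between the tissues 8 of 28 (28.6%) were called, each lower in the EEM, with FRAS1 (−5.81) and FREM2 (−2.74) among them. COL15A1, a collagen of basement membrane zones, had at most 1 count in the EEM of IVV embryos and averaged 21.8 CPM in their ED, at least 370.2-fold higher than 3 counts per library.

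Of the dystroglycan complex, PLEC (plectin, which ties the complex and ITGB4 to the cytoskeleton) was higher in IVP in both tissues: 151 ± 59.5 against 83.5 ± 18.6 CPM in the ED (0.82, SE 0.24, adjusted p = 0.0388) and 140 ± 38.2 against 73.9 ± 29.7 CPM in the EEM (0.96, SE 0.25, adjusted p = 0.0300). SGCA, a sarcoglycan, was lower in the ED of IVP (−3.68, SE 0.63), with at most 4 counts in an IVP disc, so that it entered the test through the IVV discs alone. This made 2 of 26 called in the ED (7.69%) and 1 of 24 in the EEM (4.17%), near the shares of all genes. Of the other laminin receptors and lateral partners, SDC1 (syndecan 1) was higher in IVP in both tissues, with 75.8 ± 38.1 against 25.3 ± 8.50 CPM in the ED (1.58, SE 0.29, adjusted p = 0.00146) and 70.4 ± 30.6 against 24.1 ± 12.6 CPM in the EEM (1.72, SE 0.27, adjusted p = 0.000318). SDC2 was lower in the ED (−0.84, SE 0.25), which made 2 of 17 called there (11.8%) and 1 of 15 in the EEM (6.67%).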

How the data were processed

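The authors mapped the paired reads to ARS-UCD1.3 with STAR 2.7.0b and counted them per gene with featureCounts of Subread 2.0.3; the submitters' processing notes also name FastQC 0.11.9 and Trimmomatic. The deposited values are raw counts per Entrez gene, which carry neither strand nor gene length. A count of 2 was more frequent than a count of 1 (19289 against 15257 entries). A count of 4 was more frequent than a count of 3 (13852 against 13344). Whether the mates of a pair were counted separately was not tested. If they were, the counts given here, the count rule and the floor rest on fewer fragments than their numbers say. Fits with halved counts are among the alternatives below. Libraries of 48713218 to 63037371 counts set the precision, and a gene with at most 3 counts in each library of a group was taken as at the floor. Symbols came from the RefSeq gene table of ARS-UCD2.0 (31630 of 35092 IDs named, 99.5% of counts), and none of its coordinates were used. Levels per length and the planned comparison of chain composition were not run, because no transcript lengths were at hand.

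IVP and IVV were compared within each tissue with edgeR 4.0.16 (quasi-likelihood test, TMM factors, filterByExpr, R 4.3.3, limma 3.58.1) and 1 surrogate variable (sva 3.50.0), with Benjamini-Hochberg adjustment over all genes at 0.05. EEM and ED, and the interaction, were fitted in the 26 libraries of 13 embryos with embryo as a block. Titles give both tissues the embryo's name, and the deviations of the 2 tissues of an embryo correlated at over 0.1 in 12 of 13 embryos (−0.187 to 0.636, median 0.393). CPM are given with TMM factors, and 95% intervals are normal intervals from the fitted SE. Alternatives were DESeq2 1.42.0, other scaling and filters, halved counts, XIST, title letters and prefixes, no block, and leaving out each embryo; scaling by library size alone was added after the data were seen. The models were tested on simulated data. Every gene of the set is accounted for, called genes are given with their values (1 of them, and 1 gene of another list, are counted but not reported here by name or value), and of other lists at most 4 called genes are named for a comparison, by smallest p, except where a count of 5 or fewer is named in full. The members and lists were chosen with earlier results of these data known.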

Additional observations from a re-analysis of the deposited data

Results flagged for a closer look

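Of 62 groups of 4 to 10 libraries looked at, 4 held a library that stood apart from the others of its group by Dixon's ratio, which by chance happens in about 1 in 20 groups. ITGA9 in the ED of IVP was 0.315 CPM (17 counts) in IVP10 against 0.928 to 1.70 CPM in the other discs. ITGA9 in the ED of IVV was 0.316 CPM (18 counts) in VE4 against 1.20 to 3.09 CPM. VE19 was apart in the ED of IVV for ITGAL, at 0.2825 CPM (14 counts) against 0.913 to 1.91 CPM, and for LAMC1, at 104.4 CPM (5173 counts) against 166 to 249 CPM.

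The difference of EEM from ED was itself different between IVP and IVV embryos for ITGB2 (2.64 on the log2 scale) and ITGB7 (1.98), by the interaction term of edgeR's quasi-likelihood test.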

How the results depend on the processing

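Of 562 values of called genes under the alternatives, 511 kept their direction and their side of the threshold, 51 kept the direction and lost the call, and 0 reversed. In the ED the count of all genes called moved from 998 to 1512 with DESeq2, 1846 with no filter, 1603 with 10 counts in 3 libraries, 654 with XIST as covariate, 656 with IVPF embryos alone and 240 with the other IVP embryos. It was 639 to 1160 with 1 embryo left out, lowest without VE29. The count over the 38 genes was 1 with the other IVP embryos and 6 to 8 with 1 embryo left out. In the EEM all genes called moved from 561 to 1211, 963, 145, 281 and 96 with no filter, 10 counts in 3 libraries, XIST, titles in C alone and IVPF embryos alone, and to 426 to 729 with 1 embryo left out. The count over the 38 genes there was 1 with no surrogate variable (LAMA3), 4 with no filter, 0 with XIST (4 at an unadjusted p under 0.05 in edgeR), 0 with titles in C (3 unadjusted), 1 with IVPF embryos, 1 with the others and 2 to 3 with 1 embryo left out, against 3 by DESeq2.

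Without the replicate block the genes called between EEM and ED were 1938 in the 26 paired libraries and 2238 in all 30, against 3674, and 2843 to 3719 with 1 embryo left out; over the 38 genes they were 9 and 11, against 13, and 12 to 15. For the interaction, all genes called moved from 172 to 435 with DESeq2, 356 with no filter and 301 without the block in 30 libraries, and to 101 to 211 with 1 embryo left out, with 109 without IVP10, 109 without IVPF14, 104 without VE28 and 101 without VE29. Over the 38 genes the interaction called 7 with DESeq2, 5 with no filter, 5 and 5 without the block, and 1 to 3 with 1 embryo left out, 1 without IVPF14. With halved counts LAMC3 had too few counts to be tested. The causes of the other changes were not tested. Depth limits LAMC3, ITGA4, ITGA7, ITGA11 and ITGAL, which had few or no counts in the EEM.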

Other observations

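FN1, the fibronectin bound by ITGA5 with ITGB1, averaged 3297 ± 1538 CPM in the ED of IVP, 2240.4 ± 573 in the ED of IVV, 3298 ± 1386 in the EEM of IVP and 2444 ± 896 CPM in the EEM of IVV embryos (SD). COL4A1, a chain of the type IV collagen to which nidogens bind laminin, averaged 613 ± 442, 386 ± 181, 644 ± 255 and 426 ± 217 CPM in the same groups.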
